A study of Mus musculus with 6 samples.

Results

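Semaphorins, plexins and neuropilins make up a ligand and receptor system with 31 genes on these arrays, out of 19938 genes measured. The 31 were taken by gene symbol from the platform annotation and comprise 20 semaphorins, 9 plexins and 2 neuropilins. The study differentiated mouse embryonic stem cells (mESCs) of a 129SVEV line in which GFP had been knocked into the Bcl11b gene, which encodes CTIP2, behind an internal ribosome entry site, with the neomycin cassette still in place. The cells grew as floating aggregates with SB-431542, an inhibitor of TGF-beta, Activin and Nodal signalling, and WNT-C59, an inhibitor of WNT secretion, during the first days of culture. CTIP2:GFP+ and CTIP2:GFP- cells were sorted from these cultures on day 11, day 12 and day 13, and RNA of each fraction and day was hybridised to 1 GeneChip Mouse Gene 1.0 ST array. Both fractions thus shared the line, the reporter allele and the inhibitors, and both were described as cortical progenitors. Everything rests on 1 knock-in line, and the reporter marks any cell that uses the Bcl11b locus. The 3 arrays of a fraction stand for 3 days in a row, with no second culture of any day, and nothing in the sources says whether the days were separate differentiations. The p-values of the main test therefore rest on the spread of the difference between days, together with a variance shared across genes. That spread may in part be technical.

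Semaphorins are guidance cues for growing axons and migrating cells. Class 3 semaphorins are secreted, classes 4, 5 and 6 are held in the membrane by a transmembrane segment, and class 7 by a lipid anchor. Plexins are the receptors that pass the signal into the cell. Most class 3 semaphorins cannot bind a plexin by themselves and need a neuropilin, which binds the ligand and pairs with an A plexin. Class 6 semaphorins bind A plexins directly, class 4 semaphorins mainly bind B plexins, Sema7a binds Plxnc1 and Sema3e binds Plxnd1. In the developing forebrain the system steers cortical axons and sorts migrating interneurons between the striatum and the cortex.

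All values are RMA signals on the log2 scale, and a difference is the signal in GFP+ minus that in GFP- cells. Limma compared the fractions, taking each day as a block, and an adjusted p is the Benjamini-Hochberg value over all 19938 genes. No gene was removed for a low signal. All 31 members had a mean signal above the 20th percentile of all probe sets (4.67), and 6 of them, Sema3b, Sema3c, Sema3d, Sema3e, Sema3g and Plxnb3, lay under the median (5.43).

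Bcl11b, the gene that carries the reporter of the sort, was 1.87 higher in GFP+ cells (adjusted p = 0.025). Neuronal genes were higher in GFP+ cells without overlap in 10 of 10 cases, against 9.05% of all genes, and Map2 and Syt1 passed the test. Of 10 radial glial genes 5 were lower past the test (Nes, Vim, Hes5, Slc1a3 and Notch1), against 0.567% of all genes. Of 8 genes of the ventral forebrain and interneurons 6 were higher past the test, against 0.797% of all genes. Of the 7 markers measured for the cortical label 0 passed the test (median difference -0.23). The mean difference was 0.74 for Tbr1 and 0.53 for Neurod6, and it ran from -1.28 for Pax6 to -0.07 for Lhx2 over the other 5. In GFP+ cells Neurod6 lay at 4.51, 5.69 and 5.27 and Tbr1 at 4.96, 6.79 and 5.84 on day 11, day 12 and day 13. All 6 endothelial and all 4 pluripotency genes had mean signals under the median of the probe sets, and 0 of them passed the test. The day 13 GFP- array stood apart, since its probe sets spread less (SD 1.11) than those of the other 5 arrays (1.29 to 1.48). Its median was the highest of the 6 (5.52, against 5.32 to 5.44). The endothelial and pluripotency lists, both dim, had their highest mean signals on it (5.40 each). That array was the lowest of the 6 for 31.2% of all genes and for 15 of the 31 members, among them 8 of the 11 receptors. Fewer cells of a type and less RNA per cell cannot be told apart in sorted bulk RNA.

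The neuropilins, the A plexins, Plxnc1 and 5 of the 6 class 4 semaphorins had higher signals in GFP+ than in GFP- cells on every day. The B plexins and most class 3 semaphorins had no constant sign in the deposited values. At an adjusted p under 0.05, Nrp2 and Sema4a were higher, 0 members were lower and the other 29 missed the threshold, against 0.797% of all genes higher and 0.567% lower. Without adjustment limma gave 16 members higher and 2 lower at p under 0.05, against 9.58% and 5.96% of all genes. The methods' t-test gave 8 and 1, against 4.85% and 3.96% of all genes. By the mean over days, 4 members were over 2-fold higher, all of them receptors (Nrp2, Plxna4, Plxna2 and Nrp1), and 0 were over 2-fold lower, against 1.97% and 1.02% of all genes. Every GFP+ array lay above every GFP- array for 14 members and below for Sema3d and Sema5b, against 9.05% and 7.85% of all genes. The 14 were 7 of the 11 receptors and 7 of the 20 ligands. On all 3 days 17 members were higher and 5 were lower, against 16.9% and 21.4% of all genes, and 9 had no constant sign. After median centring of each array these counts were again 17, 5 and 9, and after a further quantile normalization 17, 7 and 7. The 17 higher in the deposited values were 7 of the 11 receptors and 10 of the 20 ligands. The median difference was 0.82 for the receptors and 0.19 for the ligands, beside -0.05 for all genes. After a further quantile normalization it was 0.56 and 0.20. Among genes with a mean above the median of the probe sets it was 0.89 and 0.48, beside 0.10 for all such genes. By day, in the deposited values, the receptors had medians of 0.58, 0.33 and 0.94 and the ligands 0.15, 0.27 and 0.26 on day 11, day 12 and day 13. The difference between ligands and receptors was not tested.

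**Figure D1:**
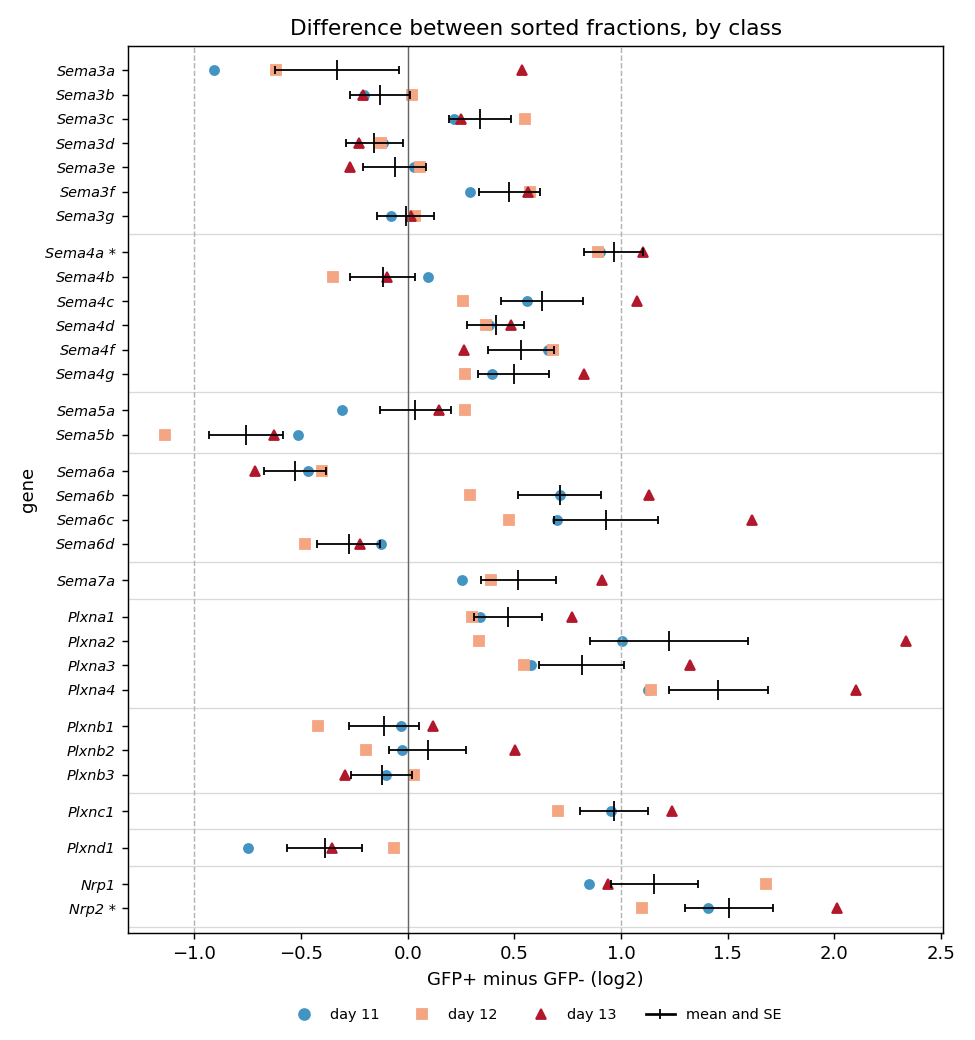
GFP+ minus GFP- difference (x axis, log2) of the 31 members (y axis), grouped by class. Points are the 3 days, black bars the mean and its limma standard error, dashed lines a 2-fold difference, and stars the 2 genes past the test. Both neuropilins, all 4 A plexins and Plxnc1 lie to the right of 0 on every day, while the 3 B plexins lie on both sides, though all on the left after a further quantile normalization.

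Nrp2, the neuropilin that binds Sema3f, had the largest difference of the 31. Its signal was 8.83, 8.59 and 8.75 in GFP+ cells and 7.42, 7.49 and 6.74 in GFP- cells on day 11, day 12 and day 13. The GFP+ arrays lay close together and all above the GFP- arrays, of which day 13 was the lowest. Nrp2 was 2.84-fold higher in GFP+ cells (log2 difference 1.51, standard error 0.21, adjusted p = 0.043). The means were 8.72 ± 0.12 (SD, n = 3) and 7.22 ± 0.41 (SD, n = 3). With no block for the day it also passed (adjusted p = 0.046). Without day 13 the difference was 1.25 and the call was lost (adjusted p = 0.061), as it was after median centring of each array (adjusted p = 0.144) and with the methods' t-test (adjusted p = 0.292).

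Nrp1, the main receptor for Sema3a, was at 6.40, 7.47 and 6.48 in GFP+ and at 5.55, 5.78 and 5.54 in GFP- cells on the same days. The GFP+ array of day 12 stood well above the other GFP+ arrays, and there was no overlap between the fractions. The difference was 0.85, 1.68 and 0.94 by day. Unlike in Nrp2 and most other receptors, day 12 and not day 13 had the largest value. The mean of 1.16 (2.23-fold, 95% confidence interval 0.65 to 1.66) did not pass the test (adjusted p = 0.066). It did pass in 5 of the 12 alternatives: without day 11, without day 12, with either filter on dim genes and with a trended and robust eBayes. It did not pass with no block for the day (adjusted p = 0.153) or without day 13 (adjusted p = 0.107). Median centring (adjusted p = 0.144), quantile normalization (adjusted p = 0.071) and the methods' t-test (adjusted p = 0.490) also left it outside.

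The 250 bases before the transcription start are shown for both neuropilins, Sema4a and Sema5b, since Nrp2 and Sema4a passed the test, Nrp1 is the other neuropilin and Sema5b is the ligand with the largest difference the other way. Capitals mark GC boxes, the letters GGGCGG on either strand, to which factors of the Sp family bind. The sequences are from RefSeq on GRCm38.p6 and are written 5′ to 3′ on the strand of the gene, and that of Sema4a is before the most upstream of its 4 starts. The intervals are chr1:62703067-62703316 on the plus strand for Nrp2, chr8:128358823-128359072 on the plus strand for Nrp1, chr3:88461183-88461432 on the minus strand for Sema4a and chr16:35541112-35541361 on the plus strand for Sema5b.
Nrp2: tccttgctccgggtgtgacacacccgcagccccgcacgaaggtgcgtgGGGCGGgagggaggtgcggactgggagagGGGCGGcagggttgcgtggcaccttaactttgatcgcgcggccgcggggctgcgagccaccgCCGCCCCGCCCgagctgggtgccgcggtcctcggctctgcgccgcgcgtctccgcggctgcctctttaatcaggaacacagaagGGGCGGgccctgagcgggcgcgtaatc
Nrp1: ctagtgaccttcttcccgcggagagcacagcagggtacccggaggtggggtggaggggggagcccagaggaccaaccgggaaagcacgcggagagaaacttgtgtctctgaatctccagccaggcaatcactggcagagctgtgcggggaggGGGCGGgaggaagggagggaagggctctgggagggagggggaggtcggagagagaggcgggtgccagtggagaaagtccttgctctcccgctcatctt
Sema4a: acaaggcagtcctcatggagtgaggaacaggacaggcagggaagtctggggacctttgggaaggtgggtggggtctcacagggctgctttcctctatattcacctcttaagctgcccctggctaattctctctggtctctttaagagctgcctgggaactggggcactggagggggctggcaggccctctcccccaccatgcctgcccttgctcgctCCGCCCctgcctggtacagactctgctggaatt
Sema5b: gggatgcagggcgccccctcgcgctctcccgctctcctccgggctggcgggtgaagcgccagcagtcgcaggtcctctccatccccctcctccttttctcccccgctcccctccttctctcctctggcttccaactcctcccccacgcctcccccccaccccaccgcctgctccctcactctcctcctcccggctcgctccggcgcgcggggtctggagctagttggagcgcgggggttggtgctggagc
Nrp2 holds 5 GC boxes, of which 2 overlap, while Nrp1 and Sema4a hold 1 each and Sema5b holds 0. GC content was 72.4% for Nrp2, 64.4% for Nrp1, 59.6% for Sema4a and 72.0% for Sema5b, so the window without a GC box is about as rich in G and C as the window with 5. Of the 37 windows listed for 26 of the 31 members, 27 hold a GC box (73.0%), against 32.7% of all 32851 windows of this length. The E-box CAGCTG, a target of proneural factors, is in 6 of the 37 (16.2%) and in 13% of all windows, and the homeodomain core TAATTA is in 0 of the 37 and in 4.84% of all. Both motifs read the same on either strand. A match describes these letters and is not a measured binding site.

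All 4 A plexins, the partners of neuropilins and the receptors of class 6 semaphorins, were higher in GFP+ cells on each day and without overlap, against 9.05% of all genes without overlap. After a further quantile normalization Plxna1 overlapped, and the means of Plxna1, Plxna2, Plxna3 and Plxna4 were 0.21, 0.99, 0.56 and 1.24. None of the 4 passed limma at the adjusted threshold (4 higher at an unadjusted p under 0.05, and 2 with the methods' t-test, against 9.58% and 4.85% of all genes). Plxna4 was at 8.30, 8.56 and 8.62 in GFP+ and at 7.18, 7.42 and 6.52 in GFP- cells. Its difference of 1.13 on day 11 and 1.14 on day 12 was 2.10 on day 13, where the GFP- signal was lowest. The mean was 1.46 (2.74-fold, standard error 0.23, adjusted p = 0.055), close to the threshold, and 6 of the 12 alternatives called it. Plxna2 was at 9.79, 9.64 and 9.73 in GFP+ and at 8.79, 9.30 and 7.39 in GFP- cells. The GFP+ values were nearly level, and the spread lay in the GFP- arrays. Its difference was 1.01, 0.33 and 2.33 by day, with a mean of 1.22 (2.34-fold, 95% confidence interval 0.31 to 2.14, adjusted p = 0.192). Without day 13 it was 0.67, so most of the mean comes from that day. Plxna3 differed by 0.58, 0.54 and 1.32 (mean 0.82, adjusted p = 0.127) and Plxna1 by 0.34, 0.30 and 0.77 (mean 0.47, adjusted p = 0.239). The median over the 4 genes was 1.02, and 0.61 without day 13.

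Plxnc1, the receptor of Sema7a, was at 7.83, 7.61 and 8.30 in GFP+ and at 6.88, 6.91 and 7.07 in GFP- cells. On day 13 the GFP- signal of Plxnc1 was the highest of the 3, in contrast to the A plexins, and its GFP+ signal was the highest too. The fractions did not overlap, except after a further quantile normalization. The difference of 0.95, 0.71 and 1.24 by day averaged 0.97 (1.95-fold, standard error 0.16, adjusted p = 0.060) and did not pass the test.

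**Figure D2:**
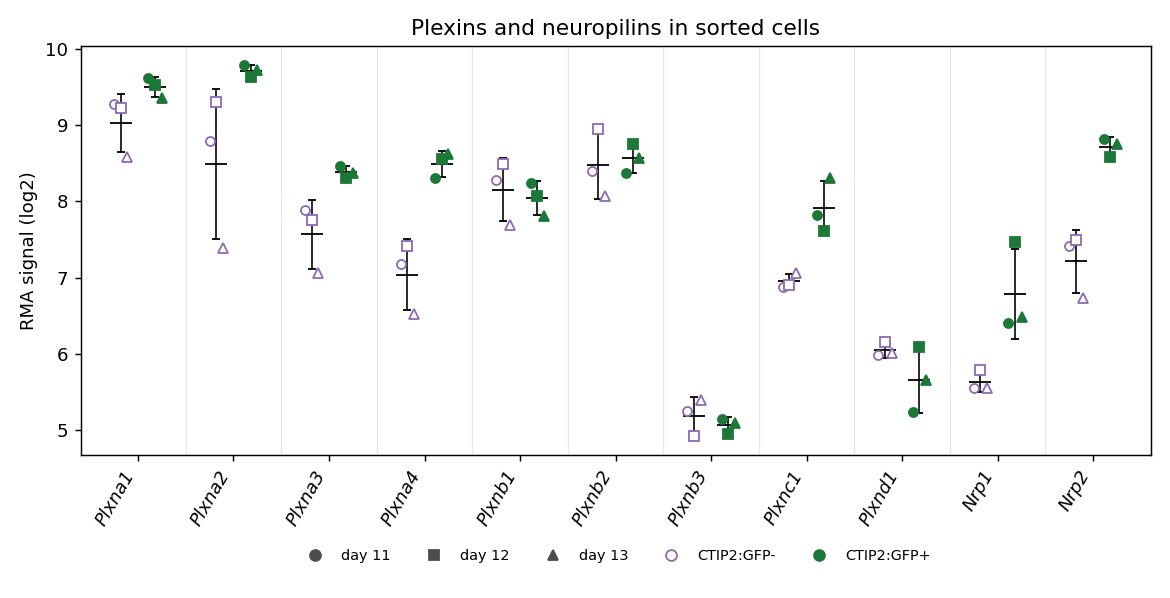
RMA signal (y axis, log2) of the 9 plexins and 2 neuropilins (x axis) on the 6 arrays. CTIP2:GFP- arrays are drawn open and CTIP2:GFP+ arrays filled, shapes are days, and bars are the mean ± SD (n = 3). The day 13 GFP- array (open triangle) is the lowest point of all 4 A plexins and of Nrp2, but the highest GFP- point of Plxnc1.

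The B plexins, the receptors of class 4 semaphorins, had no constant sign over the days in the deposited values, while after a further quantile normalization all 3 were lower in GFP+ cells on every day. Plxnb1 differed by -0.03, -0.42 and 0.12 (mean -0.11, 95% confidence interval -0.51 to 0.29). Plxnb2, which progenitors of the developing brain also use, differed by -0.03, -0.20 and 0.50 (mean 0.09, 95% confidence interval -0.35 to 0.54). Neither interval leaves out 0. The mean of Plxnb2 turned negative without day 13 (-0.11) and after the quantile normalization (-0.20). Plxnb3, a receptor of Sema5a with a signal under the median of the probe sets, differed by -0.10, 0.03 and -0.29 (mean -0.12). Plxnd1, the receptor of Sema3e and well known from blood vessels, was at 5.23, 6.09 and 5.65 in GFP+ and at 5.98, 6.16 and 6.01 in GFP- cells. It had a lower GFP+ signal on every day, although day 12 turned after the quantile normalization (0.014) and the fractions overlapped (mean -0.39, adjusted p = 0.381). The 6 endothelial markers each had a mean over the 6 arrays under the median of the probe sets, and the list had mean signals of 4.82 to 5.02 on the GFP+ and 4.92 to 5.40 on the GFP- arrays.

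Sema4a was the 1 ligand past the test. It is a membrane-bound class 4 semaphorin, known for its action on immune cells and in the retina. The signal was 6.56, 6.67 and 6.38 in GFP+ and 5.65, 5.77 and 5.28 in GFP- cells. Every GFP+ array lay above every GFP- array, and day 13 was the lowest in both fractions. The difference was 0.90, 0.89 and 1.10 by day. Sema4a was 1.95-fold higher (log2 difference 0.97, standard error 0.14, 95% confidence interval 0.62 to 1.31, adjusted p = 0.045), just under the 2-fold threshold that the study set for these arrays. With no block for the day the call was lost (adjusted p = 0.077). It was also lost without day 11 (adjusted p = 0.073), without day 13 (adjusted p = 0.070), after median centring (adjusted p = 0.119), after quantile normalization (adjusted p = 0.071) and with the methods' t-test (adjusted p = 0.320).

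Of the other class 4 semaphorins, 4 had higher GFP+ signals on all days and did not pass the test. Sema4c differed by 0.56, 0.26 and 1.07 (mean 0.63, adjusted p = 0.196) and Sema4f by 0.66, 0.68 and 0.26 (mean 0.53, adjusted p = 0.178). Sema4d, a ligand of Plxnb1, differed by 0.38, 0.37 and 0.48 (mean 0.41, adjusted p = 0.223), but a further probe set of the gene gave 0.11, 0.43 and -0.41. Sema4g differed by 0.39, 0.27 and 0.83 (mean 0.50, adjusted p = 0.233). Sema4b differed by 0.09, -0.35 and -0.10 (mean -0.12, adjusted p = 0.751), with no constant sign except after quantile normalization, where it was lower on all days. The 6 genes had a median difference of 0.51.

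The class 6 semaphorins, ligands of the A plexins, were on both sides of 0, with Sema6b and Sema6c higher and Sema6a and Sema6d lower in GFP+ cells on all 3 days. None of the 4 passed limma (2 higher and 1 lower at an unadjusted p under 0.05, against 9.58% and 5.96% of all genes). Sema6c was at 7.88, 7.75 and 7.67 in GFP+ and at 7.18, 7.27 and 6.06 in GFP- cells. Its GFP- signal was clearly lowest on day 13, and the difference of 0.70, 0.47 and 1.61 averaged 0.93 (adjusted p = 0.147). Sema6b differed by 0.72, 0.29 and 1.13 (mean 0.71, adjusted p = 0.157), and its fractions did not overlap either. Sema6a, which acts on migrating neurons and as a ligand of Plxna2 and Plxna4, was at 8.72, 9.39 and 8.71 in GFP+ and at 9.19, 9.79 and 9.43 in GFP- cells. Both fractions were highest on day 12, so the ranges overlapped while each day gave the same sign. After a further quantile normalization they did not overlap, and the mean was -0.78. The difference was -0.47, -0.40 and -0.72 (mean -0.53, 95% confidence interval -0.88 to -0.17, adjusted p = 0.157). Sema6d, a ligand of Plxna1, differed by -0.13, -0.48 and -0.22 (mean -0.28, adjusted p = 0.457).

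Sema5b, a transmembrane semaphorin that repels axons, had the most negative difference of the 31. Its signal was 7.57, 7.49 and 7.35 in GFP+ and 8.08, 8.63 and 7.98 in GFP- cells. All GFP+ arrays lay under all GFP- arrays, and the gap was widest on day 12. The difference of -0.51, -1.14 and -0.63 averaged -0.76 (1.69-fold lower, 95% confidence interval -1.19 to -0.33) and did not pass the test (adjusted p = 0.110). Sema5a differed by -0.31, 0.27 and 0.15 (mean 0.04, 95% confidence interval -0.38 to 0.45). Sema7a, the ligand of Plxnc1, was at 6.30, 6.63 and 6.40 in GFP+ and at 6.04, 6.24 and 5.49 in GFP- cells. The fractions did not overlap, except after median centring, and the mean of 0.52 did not pass the test (adjusted p = 0.242).

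**Figure D3:**
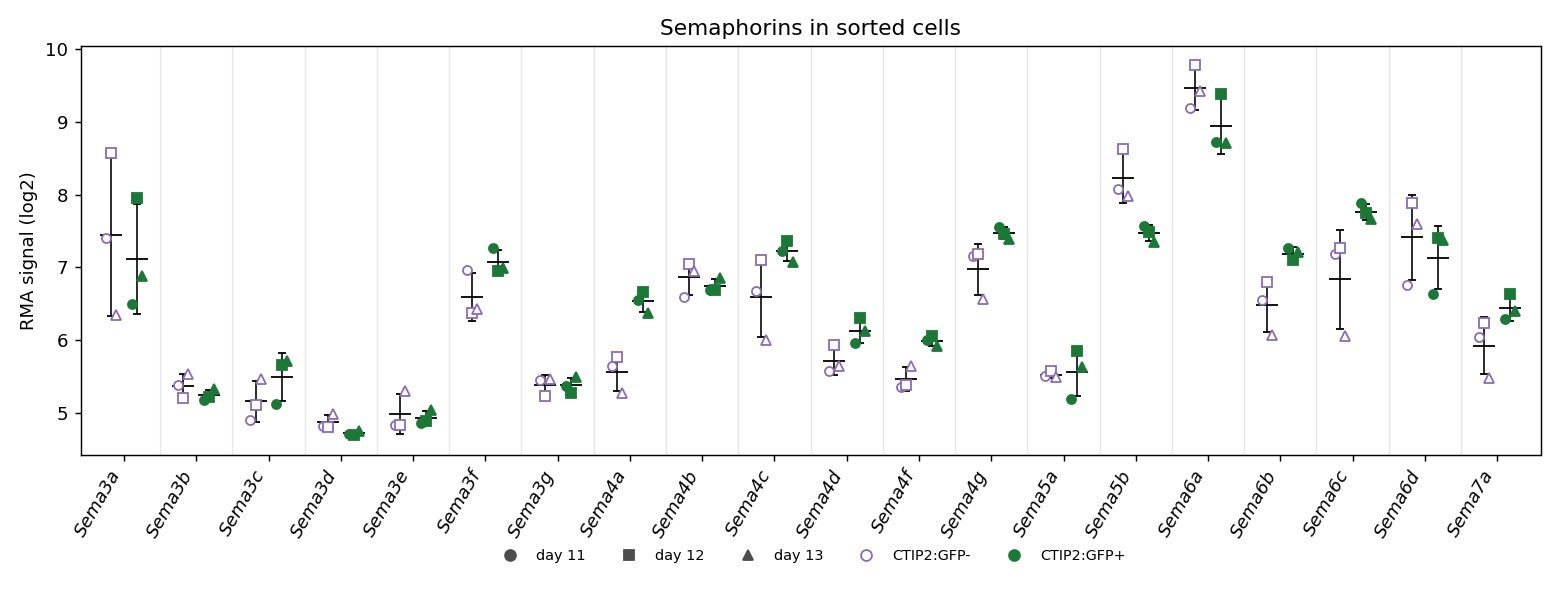
RMA signal (y axis, log2) of the 20 semaphorins (x axis) on the 6 arrays. CTIP2:GFP- arrays are drawn open and CTIP2:GFP+ arrays filled, shapes are days, and bars are the mean ± SD (n = 3). For Sema4a all GFP+ points lie above the GFP- points, for Sema5b all lie below, and for Sema3a the fractions interleave.

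The secreted class 3 semaphorins, ligands of the neuropilins, had a median difference of -0.06 over 7 genes. None of the 7 passed limma (1 higher at an unadjusted p under 0.05, and 0 with the methods' t-test, against 9.58% and 4.85% of all genes). Sema3f, the ligand of Nrp2, was at 7.26, 6.95 and 7.0 in GFP+ and at 6.97, 6.37 and 6.43 in GFP- cells. It was higher in GFP+ cells on each day but the ranges overlapped, except after median centring (mean 0.48, 95% confidence interval 0.12 to 0.83, adjusted p = 0.191). Sema3c, which attracts cortical axons, differed by 0.21, 0.55 and 0.25 (mean 0.34, adjusted p = 0.358). Sema3a, the ligand of Nrp1, was at 6.49, 7.96 and 6.89 in GFP+ and at 7.40, 8.58 and 6.35 in GFP- cells. Both fractions had their highest signal on day 12, and the difference went from -0.91 and -0.62 on day 11 and day 12 to 0.54 on day 13. The mean was -0.33 (95% confidence interval -1.05 to 0.39, adjusted p = 0.653). Sema3b, Sema3d, Sema3e and Sema3g all had mean signals under the median of the probe sets, and their mean differences were -0.13, -0.16, -0.06 and -0.01. The sign of Sema3g turned after median centring and that of Sema3e and Sema3g after quantile normalization. Sema3d lay at 4.71, 4.69 and 4.76 in GFP+ and at 4.82, 4.81 and 4.99 in GFP- cells, without overlap except after quantile normalization, and near the 20th percentile of 4.67.

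The difference had its highest value on day 13 for 16 of the 31 members, against 38.7% of all genes. Over all members the median difference in the deposited values was 0.25, 0.27 and 0.50 on day 11, day 12 and day 13, against -0.01, -0.00 and -0.07 for all genes. The order of the days depended on the scaling. After a further quantile normalization day 13 had the smallest value of the days for Plxna1 (0.14), Plxnc1 (0.66) and Plxnb1 (-0.52). It kept the largest for Plxna2, Plxna3, Plxna4, Plxnb2 and Nrp2. The larger median on day 13 in the deposited values goes with the GFP- array that stands apart. The mean signal of the 10 neuronal genes was 8.91, 9.01 and 7.85 in GFP- cells on the consecutive days and 9.68 to 9.98 in GFP+ cells, and day 13 GFP- was the lowest array for 10 of 10. The part of these genes in the differences of the receptors was not tested. A trend of the difference with day was tested with limma, with 1 residual degree of freedom. The standard error was 0.27 for every member, a value shared across genes, so a gene's own scatter did not enter the test. The trend passed for 0.0351% of all genes and for 0 of the 31 members. Sema3a and Plxna2 had an unadjusted p under 0.05 (adjusted p = 0.650 and 0.773), against 5.11% of all genes. Without day 13 the members had a median difference of 0.32 and the receptors of 0.56. Limma then had 1 residual degree of freedom and called 0 of all 19938 genes (18 of the 31 members and 3064 of all genes at an unadjusted p under 0.05).

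Genes that work with the system inside the cell or beside the receptors were taken from 3 lists with 37 genes, all measured. Of these, 2 were higher past the test, 1 was lower and 34 did not pass, against 0.797% of all genes higher and 0.567% lower. The median difference was 0.16, beside -0.05 for all genes. Among 10 co-receptors and other receptors, L1cam was 2.91-fold higher (1.54 ± 0.19 on the log2 scale, mean and standard error, adjusted p = 0.032). L1CAM is an adhesion molecule that joins Nrp1 in the response to Sema3a, and the study chose it as a marker on these arrays, so its value is not independent evidence. Its difference was 1.10, 1.72 and 1.81 by day. Its relatives Nrcam, a partner of Nrp2, and Chl1, a partner of Nrp1, had means of 0.71 (adjusted p = 0.187) and 0.53 (adjusted p = 0.465). Chl1 had no constant sign (-0.31, 0.79 and 1.11 by day), and its mean ran from 0.24 to 0.95 with 1 day left out. Erbb2, a receptor kinase that associates with B plexins, was at 5.90, 6.08 and 5.39 in GFP+ and at 7.28, 8.10 and 7.23 in GFP- cells. All GFP+ arrays lay under all GFP- arrays, and Erbb2 was 3.36-fold lower (-1.75 ± 0.17 on the log2 scale, adjusted p = 0.025). Neither L1cam (adjusted p = 0.075) nor Erbb2 (adjusted p = 0.065) passed when the day was not a block, and without day 13 they were at adjusted p = 0.071 and 0.061.

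Of 24 intracellular effectors, 1 was higher past the test, none was lower, and 23 stayed outside it (10 higher and 1 lower at an unadjusted p under 0.05 with limma, 5 and 1 with the methods' t-test). Of all genes 9.58% were higher and 5.96% lower by the first count and 4.85% and 3.96% by the second. The gene past the test was Cdk5r1, the activator of the kinase CDK5, which phosphorylates collapsin response mediators (2.29-fold, or 1.20 ± 0.17 on the log2 scale, adjusted p = 0.045). By day Cdk5r1 differed by 1.55, 1.02 and 1.01, and its call was lost without day 11 (adjusted p = 0.065) or without day 13 (adjusted p = 0.071). Crmp1 and Dpysl3, 2 collapsin response mediators, which carry the Sema3a signal to the cytoskeleton, had means of 1.39 (adjusted p = 0.113) and 1.35 (adjusted p = 0.060). Crmp1 differed by 1.06, 0.74 and 2.37 by day. Rras, a small GTPase on which the GAP domain of plexins acts, differed by -1.03, -1.70 and -0.98, and its mean of -1.24 did not pass the test (adjusted p = 0.051). The other ligands of neuropilins, Vegfa, Vegfc and Pgf, had means of -0.52, -0.20 and -0.65, and 0 of the 3 passed (2 lower at an unadjusted p under 0.05, and 0 with the methods' t-test, against 5.96% and 3.96% of all genes). The sign of Vegfc turned without day 13.

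**Figure D4:**
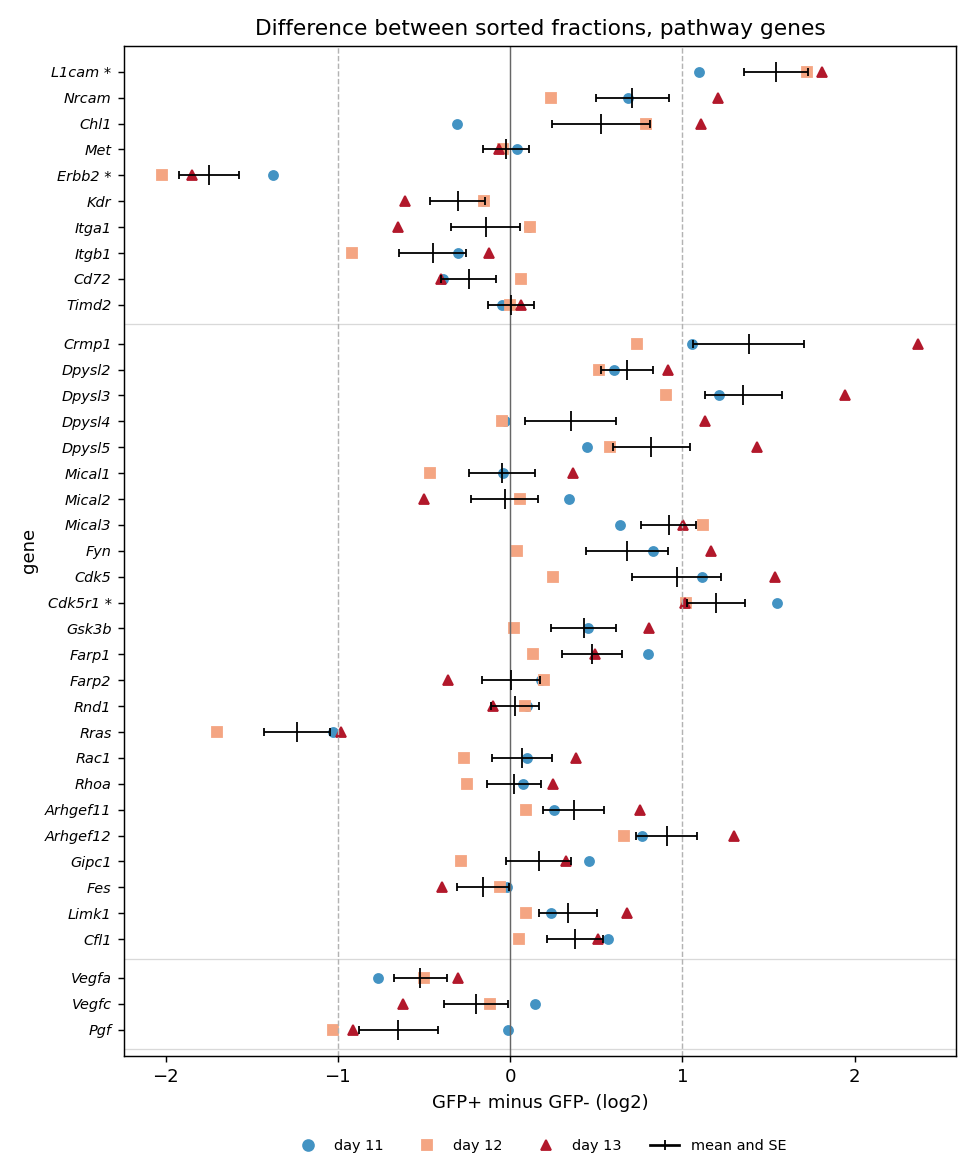
GFP+ minus GFP- difference (x axis, log2) of the 37 genes of the 3 lists of partners (y axis). Points are the 3 days, black bars the mean and its limma standard error, dashed lines a 2-fold difference, and stars the genes past the test. L1cam and Cdk5r1 lie to the right of 0 and Erbb2 to the left on every day.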

How the data were processed

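GeneChip Mouse Gene 1.0 ST arrays, 6 in all, measured total RNA of the sorted fractions, 1 for a fraction on each day. The deposited values are log2 signals that the authors made using RMA16 (GeneSpring). The annotation version, any filter and whether normalization was joint are not stated. The number of arrays limits the precision. Names came from the platform annotation: of 28853 probe sets, 21789 had 1 symbol, 1621 several and 5443 none. A gene was represented by its probe set with 1 symbol and the highest mean, and 2 members had several (Sema4d and Sema6b, the latter with equal values). All 31 symbols were matched by Entrez ID to the RefSeq gene table. The fractions were compared with limma 3.58.1 (R 4.3.3) in a model of fraction plus day (2 residual degrees of freedom), eBayes, and Benjamini-Hochberg adjustment over 19938 genes at 0.05. The day given in the labels pairs the fractions, and across genes the 2 arrays of a day deviated from the means of their fractions with correlations of 0.112, 0.558 and 0.368. An exact permutation test of 3 against 3 arrays cannot go below 0.1. The scripts were tested on simulated data. Named were all members, and of the lists of partners every gene past the test, up to 4 per list with the largest difference, and L1cam. The members, gene lists and tests were chosen with earlier results of these data known. The alternatives were no block for the day, each day left out, no block without the day 13 GFP- array, median centring, quantile normalization, the mean of probe sets, filters at the 20th percentile and the median, a trended and robust eBayes, and the methods' t-test. That t-test was unpaired, with a pooled variance and no block for the day.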

Additional observations from a re-analysis of the deposited data

Results flagged for a closer look

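For Sema3a the difference had opposite signs on different days. On day 11 and day 12 it was -0.91 and -0.62, and on day 13 it was 0.54, with 1 array per fraction and day. The change per day was 0.72 on the log2 scale, and limma's test of it did not pass after adjustment over all genes (adjusted p = 0.650), so a difference between the days is not shown. The GFP- signal of Sema3a was 7.40, 8.58 and 6.35, and the day 13 GFP- array is the one that stands apart from the rest. Its part in the value was not tested.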

How the results depend on the processing

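Of the 31 members, 26 kept the sign of their difference under all 12 alternatives, as far as each was tested there. Several of the alternatives could not turn a sign. No block on all arrays, the filters, the other eBayes and the methods' t-test leave the mean difference as it is. The mean of probe sets could change only that of Sema4d. The 5 other members had small means. Sema3e was at 0.041 without day 13, 0.097 without the day 13 GFP- array in a fit with no block, and 0.013 after quantile normalization. Sema3g was at 0.026 without day 11, 0.032 without that array and block, 0.046 after median centring and 0.049 after quantile normalization. Sema5a was at -0.081 without day 12 and -0.018 without day 13, and Plxnb1 at 0.045 without day 12. Plxnb2 was at -0.11 without day 13, -0.11 without that array and block, and -0.20 after quantile normalization. With 1 day left out these means ran from -0.12 to 0.041 for Sema3e, -0.031 to 0.026 for Sema3g, -0.081 to 0.21 for Sema5a, -0.23 to 0.045 for Plxnb1 and -0.11 to 0.24 for Plxnb2. Of the named partners Vegfc was at 0.013 without day 13 (from -0.37 with a day left out) and 0.044 without that array and block. Counts past the test moved more. Members called higher were 2, and 0 to 9 with a day left out, and 0 were called lower under any alternative. All genes called were 159 higher and 113 lower, and 0 to 930 and 0 to 229 with a day left out. Partners called were 2 higher and 1 lower, and 0 to 8 and 0 to 2. Of these fits, the one without day 13 called no gene. With no replicate block, 1 member (Nrp2) was called, with 84 genes higher and 41 lower, and 1 partner higher and 0 lower. Median centring and the methods' t-test (9 members and 1756 genes at an unadjusted p under 0.05) called 0 members, genes and partners. Quantile normalization called 1 member, 52 genes higher and 99 lower, and 0 partners higher. Genes above the 20th percentile gave 5 members, 387 and 226 genes, and 5 and 2 partners. Genes above the median gave 8 of 25 members, 703 and 337 genes, and 8 and 2 partners, and 1 member lower without overlap in place of 2 (3 to 6 with a day left out). The trended and robust eBayes gave 5 members, 549 and 510 genes, and 4 and 2 partners. No block without the day 13 GFP- array gave 4 partners higher, and the mean of probe sets 2 lower. The causes were not tested. The 3 arrays per fraction and 2 residual degrees of freedom limit every call of the main fit. A fit with a day left out has fewer arrays and 1 residual degree of freedom, which limits its calls further.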
